A study of Schizosaccharomyces pombe with 8 samples.

Results

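The rows described here are stretches of the Schizosaccharomyces pombe (fission yeast) genome that lie between 2 genes transcribed in the same direction, called tandem genes. The deposited table held 8810 intergenic rows, of which 8776 were on chromosomes I to III and 7121 remained when each interval was taken once. Of these, 3584 overlapped no gene row of the table. Among them, 1985 had the nearest gene rows to the left and right on the same strand, 1049 on the plus and 936 on the minus strand. The others comprised 668 rows between convergent genes, 923 between divergent genes, 5 with tied neighbours and 3 at a chromosome end.

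Reads on these rows were measured by poly-A selected RNA-seq in 2 libraries of a wild type and 2 libraries of the mutant cwf10-ΔNTE. The wild type was strain OHI246, of mating type h- with the alleles leu1-32, ura4-D18 and ade6-M210. The mutant was strain OHI408, of mating type h- with cwf10 2-127-delta, and also ade6-M21X, leu1-32 and ura4-D18, and lacks residues 2 to 127 of Cwf10, its N-terminal extension. Both were grown in yeast extract medium at 25 °C. Each genotype was represented by a single strain, and its replicates came from cells cultured together and were handled separately from then on. The p-values below therefore measure the spread between these libraries, which may be technical.

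Cwf10 is the fission yeast counterpart of Snu114 in budding yeast and EFTUD2 in humans, a GTPase of the spliceosome's U5 particle. In fission yeast, genes are packed closely, and the 3′ end of a messenger RNA is made by cleavage and polyadenylation at a signal in the nascent transcript. RNA polymerase II continues past that point until the exonuclease Dhp1 and termination factors release it, so the space before the next gene in the same direction can carry RNA from the upstream gene, an early start of the downstream gene, or a transcript of its own.

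The results below turn on 6 of these rows above all, and the first 300 bases past the upstream gene are shown for them. The first 3 belong to rows with more reads in the mutant, past bet4, adh4 and pho1, and the last 3 to rows with fewer, past rps1902, pus2 and rpa43. In each, the upstream gene row reaches past the stop codon, so that these bases follow its annotated end. The sequences are from RefSeq, assembly ASM294v3, and are written 5′ to 3′ on the strand of the genes. Capitals mark AATAAA, the textbook polyadenylation hexamer.
past bet4, III:2157976-2158275, plus strand: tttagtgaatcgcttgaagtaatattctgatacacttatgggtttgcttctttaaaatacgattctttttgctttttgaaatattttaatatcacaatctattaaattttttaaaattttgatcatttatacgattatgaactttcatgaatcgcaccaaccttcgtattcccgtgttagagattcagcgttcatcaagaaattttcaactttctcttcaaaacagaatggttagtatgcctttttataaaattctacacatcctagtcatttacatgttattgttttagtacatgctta
past adh4, I:156130-156429, minus strand: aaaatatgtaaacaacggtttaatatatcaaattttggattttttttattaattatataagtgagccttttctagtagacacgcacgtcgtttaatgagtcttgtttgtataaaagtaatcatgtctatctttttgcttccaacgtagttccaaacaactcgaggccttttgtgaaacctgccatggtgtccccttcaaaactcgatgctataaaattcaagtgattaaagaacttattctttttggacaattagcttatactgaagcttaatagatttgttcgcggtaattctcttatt
past pho1, II:4449054-4449353, plus strand: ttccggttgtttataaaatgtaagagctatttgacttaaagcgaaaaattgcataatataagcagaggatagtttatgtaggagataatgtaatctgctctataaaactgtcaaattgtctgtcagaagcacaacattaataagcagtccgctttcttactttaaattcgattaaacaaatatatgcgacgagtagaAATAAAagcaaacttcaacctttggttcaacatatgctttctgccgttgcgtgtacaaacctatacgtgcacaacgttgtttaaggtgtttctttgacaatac
past rps1902, II:536042-536341, plus strand: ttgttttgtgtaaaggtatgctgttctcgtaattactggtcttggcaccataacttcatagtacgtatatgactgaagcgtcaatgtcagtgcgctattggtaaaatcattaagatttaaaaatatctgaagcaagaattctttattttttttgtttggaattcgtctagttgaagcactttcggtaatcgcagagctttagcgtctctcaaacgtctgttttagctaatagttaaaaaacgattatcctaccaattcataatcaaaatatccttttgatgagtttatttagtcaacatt
past pus2, II:3561113-3561412, plus strand: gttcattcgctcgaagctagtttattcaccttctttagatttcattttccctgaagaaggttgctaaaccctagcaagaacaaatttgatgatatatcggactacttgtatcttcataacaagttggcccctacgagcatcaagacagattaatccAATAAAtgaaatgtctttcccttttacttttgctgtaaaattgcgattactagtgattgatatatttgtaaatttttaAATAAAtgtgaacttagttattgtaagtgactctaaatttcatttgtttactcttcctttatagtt
past rpa43, II:4000167-4000466, minus strand: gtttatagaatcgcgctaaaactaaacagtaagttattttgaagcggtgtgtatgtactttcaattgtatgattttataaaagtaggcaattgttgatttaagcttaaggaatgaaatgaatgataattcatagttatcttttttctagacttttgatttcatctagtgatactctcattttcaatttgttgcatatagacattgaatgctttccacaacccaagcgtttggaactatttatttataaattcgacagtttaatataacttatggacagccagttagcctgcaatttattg
The hexamer occurred 1 time past pho1 and 2 times past pus2, and was not in the other 4 windows. It was thus present and absent both among rows that were higher and among rows that were lower in the mutant. The windows begin past the annotated end of each gene, so they cannot show whether a hexamer lies inside the gene row. Over the 961 tandem rows of at least 300 bases, AATAAA on the genes' strand was in the first 300 bases of 40.6% and on the opposite strand of the same windows in 53.4%. One or the other strand held it in 72.4%. The last 300 bases, before the downstream gene, held it on the genes' strand in 44.1%. In windows of 100 bases the shares were 15.0% at the start and 14.9% at the end of the rows.

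The 4 libraries held 36186264 to 42802817 reads on gene rows and 136752 to 163914 reads on tandem rows. The strain labels were checked on cwf10 itself. Exon-exon reads over its first intron numbered 98 and 85 in wild-type cells against 0 and 0 in mutant cells. For intron 2 they were 90 and 87 against 2 and 4, and for intron 3 they were 82 and 98 against 84 and 99. The deleted ura4 of both strains had 0 reads in all 4 libraries. Across tandem rows, log-scale values correlated at 0.978 within each strain and at 0.926 to 0.932 between strains. No tandem row adjoined cwf10.

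Tandem rows were short, rich in A and T, and mostly little read. Their length ran from 1 to 20252 bases with a median of 289 and quartiles of 142 and 529, and together they covered 899486 bases. The median AT content was 70.0%. In all, 155 rows had 0 reads in every library, and the median row had 30 reads summed over the 4 libraries. Reads were concentrated: the 10 most-read rows took 20.7% of tandem reads and the 100 most-read took 60.8%. A filter on low counts kept 941 rows for testing and left out 1044. Those left out summed to 56.6 and 53.4 reads per 1000000 gene reads in the wild type and 73.1 and 75.3 in the mutant, and have no call of their own below. A near-identical copy elsewhere in the genome was found for 101 rows, and for 1228 rows at least 1 of the neighbouring genes overlapped another gene.

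Many rows were intergenic only in the annotation of the deposited table. In RefSeq, 831 rows (41.9%) were covered over at least 50% of their length by a gene, 758 of them by a gene on the opposite strand and 58 by another gene on the same strand. The downstream gene of RefSeq reached into 323 rows and the upstream gene into 7. The library kit keeps strand, but counting in the deposited table did not separate strands, as judged from its values, so reads from an antisense transcript and reads from the flanking genes' own strand cannot be told apart in these rows.

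The number of reads on a row differed widely with where the annotation ended the neighbouring gene. Among rows of at least 200 bases after a coding gene whose row stopped at the stop codon (76 rows), the median read density was 82.6% and 84.2% of the gene's own in the wild type, against 89.9% and 89.2% in the mutant. Where the upstream row went on past the stop codon (757 rows), it was 1.47% and 1.46% in the wild type and 2.05% and 2.11% in the mutant. On the other side, rows before a coding gene whose row began at the start codon (90 rows) stood at 40.7% and 39.9% of the gene's density in the wild type and 44.5% and 44.1% in the mutant. Rows before genes with an annotated leader (918 rows) stood at 1.57% and 1.6% against 2.08% and 2.21%. In all 4 sets both mutant libraries were above both wild-type libraries; these medians are over rows and carry no test.

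**Figure D1:**
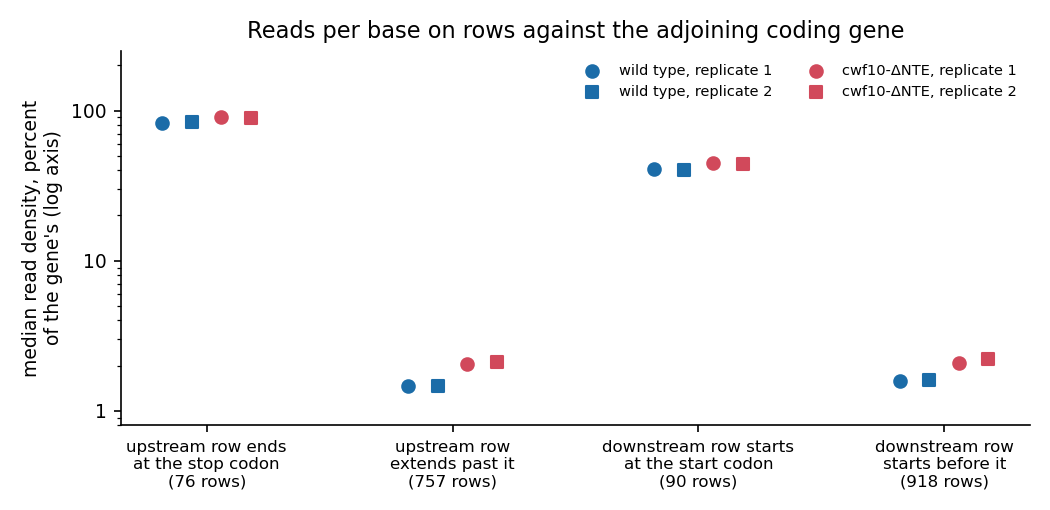
Median reads per base on tandem rows of at least 200 bases, as a percent of the reads per base of the adjoining coding gene (vertical log axis), in each of the 4 libraries, for genes whose row stops or starts at the coding sequence and for those that extend past it. The 76 rows after a gene ending at its stop codon sit between 82.6% and 89.9%, and the 757 rows after other genes between 1.46% and 2.11%.

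Row density followed the level of the neighbouring gene only loosely. Over all 981 rows of at least 200 bases with an upstream gene of at least 50 reads, Spearman's rho between reads per base of row and gene was 0.15, 0.15, 0.15 and 0.14 in wild-type replicates 1 and 2 and mutant replicates 1 and 2. Over 1059 rows with such a downstream gene it was 0.14, 0.13, 0.13 and 0.12. For the 76 rows after a stop codon it was 0.4 to 0.48, and for the 90 rows before a start codon 0.51 to 0.55. These are descriptions across rows of 1 library, whose points share depth and, where genes overlap, reads.

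The most densely read rows were short and lay inside what RefSeq annotates as transcripts. By wild-type reads per base, the leading 5 were a 14-base row before ssa2 (heat shock protein), a 22-base row before htb1 (histone H2B), a 112-base row after pfl2, a 28-base row before cyc1 (cytochrome c) and a 9-base row before mcp60. RefSeq genes covered all 5 over their whole length. The row before htb1 had 1531 and 1687 reads in the wild type and 1375 and 1570 in the mutant. These raw counts overlapped between the strains. Scaled to the gene reads of each library, both mutant values were below both wild-type values. The log2 change was -0.12 ± 0.049 (SE, edgeR adjusted p = 0.0579). Rows shorter than a read can only hold reads that also lie on a neighbour. Of all tandem rows, 144 were under 50 bases.

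Summed over all 1985 rows, tandem reads made up a larger share of the library in the mutant. They came to 3443 and 3383 reads per 1000000 gene reads in the wild type and 3779 and 3848 in the mutant, means of 3413 ± 41.9 and 3814 ± 49.0 (SD, n = 2). The log2 ratio of the means was 0.16 and the strains did not overlap, with a two-sided exact permutation p of 0.33, the smallest that 2 libraries against 2 allow. Rows between convergent genes had 1493 and 1444 reads per 1000000 gene reads in the wild type, against 1426 and 1436 in the mutant, which is the other direction. Rows between divergent genes had 1739 and 1708 against 1964 and 1979.

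The ratio of tandem to convergent reads within a library removes the scaling. Its log2 was 1.205 and 1.229 in the wild type and 1.406 and 1.422 in the mutant, higher in both mutant libraries (exact permutation p = 0.33, two-sided). The log2 ratio of tandem to divergent reads was 0.985 and 0.986 against 0.944 and 0.959, lower in both mutant libraries at the same p. Tandem rows thus lay between the other arrangements in how their share differed.

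**Figure D2:**
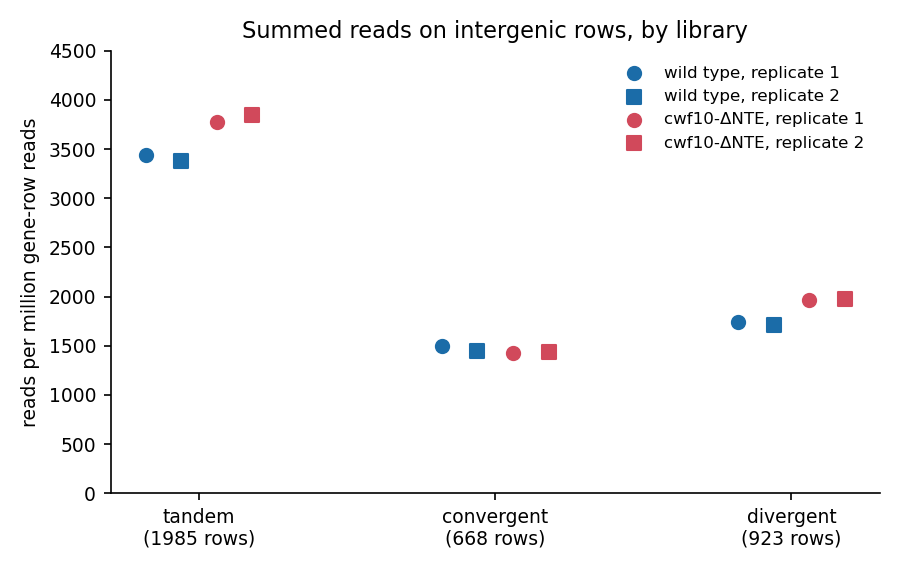
Reads per 1000000 gene-row reads summed over intergenic rows (vertical axis from 0) in each of the 4 libraries, for rows between tandem, convergent and divergent genes. Tandem rows sit at 3383 and 3443 in the wild type and at 3779 and 3848 in the mutant, convergent rows between 1426 and 1493 in all 4.

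Tested row by row, more tandem rows were higher than lower in the mutant, at a rate close to that over all intergenic rows. Of 941 tested rows, 243 (25.8%) were higher and 95 (10.1%) lower at an adjusted p under 0.05 (edgeR quasi-likelihood test, Benjamini-Hochberg over 1724 intergenic rows). Over all tested intergenic rows the shares were 25.2% higher and 11.0% lower. Tandem rows make up 941 of these 1724, so the background is in large part the same rows. Convergent rows were higher in 17.1% and lower in 14.4% of 334 tested, with a median log2 change of 0.06, and divergent rows in 30.0% and 10.4% of 443, with a median of 0.27. The calls on tandem rows lay between them in the higher share, and the difference between the arrangements was not tested row by row. Both mutant libraries were above both wild-type libraries in 441 tandem rows (46.9%), against 45.4% of all intergenic rows. The median log2 change was 0.19 with quartiles of -0.15 and 0.6, beside 0.18 over all intergenic rows. Of the rows called, 99 were at least 2-fold higher and 16 at least 2-fold lower.

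The split between higher and lower calls depended on the scaling. Scaling by the intergenic rows themselves in place of the gene rows gave 173 higher and 151 lower and moved the median to 0.05, so the excess of higher rows is relative to gene reads. DESeq2 called 101 higher and 38 lower, all among the rows called by edgeR, and the lower calls numbered 61 without mutant replicate 1. Gene rows of similar read numbers had a larger shift: among the 376 tested gene rows with a mean of 17.2 to 123.5 reads, the interquartile range of the tandem rows, 48.1% were higher and 10.9% lower, with a median of 0.4. Over all 6536 tested genes, 39.6% were higher and 38.5% lower.

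**Figure D3:**
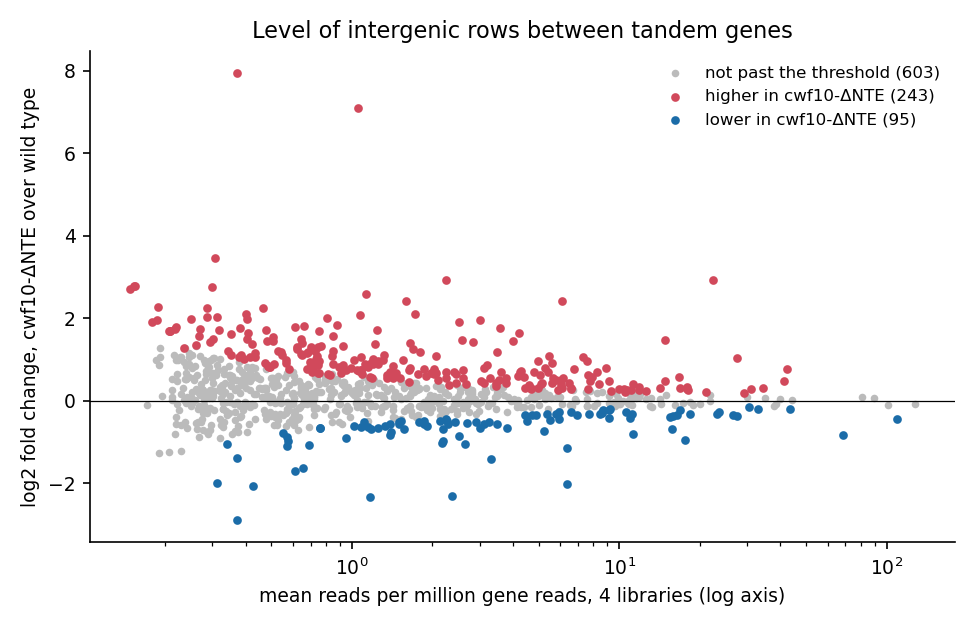
Log2 fold change of the mutant over the wild type (vertical axis) against mean scaled reads per 1000000 gene reads (horizontal log axis) for the 941 tested tandem rows. The 243 rows called higher spread over the whole range of levels, and the 95 called lower are fewer among little-read rows.

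Longer and less AT-rich rows were called higher more often. Of tested rows of up to 200 bases 15.8% were higher, of over 200 and up to 500 bases 20.5%, of over 500 and up to 1000 bases 32.9% and of over 1000 bases 46.7%, while the lower calls stayed between 7.61% and 11.6%. In the quartile of lowest AT content 34.9% were higher, in that of highest 12.0%. Rows whose upstream gene had an intron were higher in 20.6% of cases with a median log2 change of 0.07, and those whose upstream gene had none in 29.0% with a median of 0.26. For the downstream gene the shares were 24.3% with an intron and 27.1% without. The shares are descriptions without a test; longer rows also have more reads and more often pass the threshold at a given fold.

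The size of the median change and the share of lower calls differed with the reads per base of the row, while the median was positive in every quartile. Among the quartile of tested rows with fewest reads per base over the 4 libraries, the median log2 change was 0.47, with 27.1% higher and 4.24% lower. Among the quartile with most reads per base, it was 0.05, with 23.8% higher and 21.3% lower. Rows covered over at least 50% of their length by a RefSeq gene were higher in 28.4% and lower in 7.98% of cases, the others in 23.0% and 12.4%. Rows after a non-coding RNA were higher in 30.3%, those after a coding gene in 23.5% and those after any other gene, such as a tRNA gene, in 47.2% of 53 tested. By chromosome, the higher share was 24.2% on I, 25.2% on II and 31.0% on III.

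**Figure D4:**
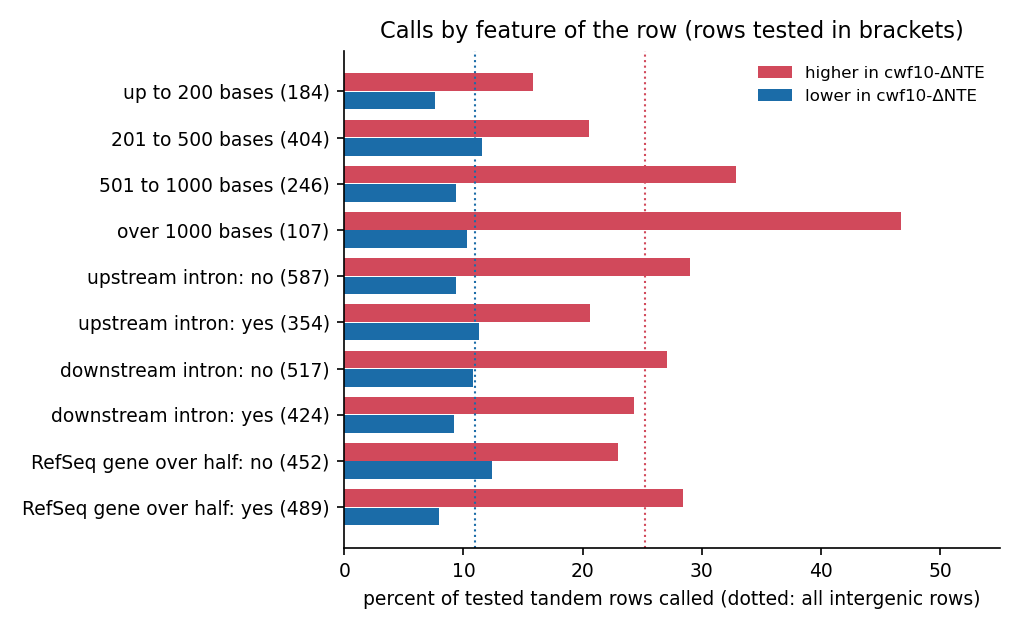
Percent of tested tandem rows called higher or lower in the mutant (horizontal axis), by row length, by introns in the neighbouring genes and by cover with a RefSeq gene, with dotted lines at the shares over all intergenic rows, 25.2% higher and 11.0% lower. The higher share runs from 15.8% in rows of up to 200 bases to 46.7% in rows of over 1000 bases.

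To set each row against its own neighbours, its reads were compared with those of the upstream gene in the same library, and separately with those of the downstream gene. Where a neighbour overlaps another gene, its count may include reads of that gene, as strands were not separated. Relative to the upstream gene, 153 of 826 rows (18.5%) were higher and 57 (6.9%) lower by the same edgeR test, with a median log2 change of 0.15. Relative to the downstream gene, 204 of 882 (23.1%) were higher and 57 (6.46%) lower, with a median of 0.16. These shares are those of the tandem rows themselves, which are the only rows this test covered. DESeq2 called 62 and 28 rows against the upstream gene and 104 and 27 against the downstream gene. Without mutant replicate 2 the higher calls fell to 101 against the upstream gene and 113 against the downstream gene, and without mutant replicate 1 to 125 against the downstream gene. The lower calls against the downstream gene numbered 35 without mutant replicate 1 and 35 without mutant replicate 2.

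Part of the rows called in level were not called relative to their neighbours. The lack of such a call does not by itself show that a row moved with a neighbour. Of the 791 rows tested in all 3 ways, 185 were higher in level, and 72 of these were also higher relative to both genes, while 32 were higher in level alone. Of 81 rows lower in level, 17 were also lower relative to both genes and 32 were lower in level alone.

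Among rows that rose with little change in the genes beside them, the row between bet4 and lsc2 stood out in all 3 measures. It spans 1183 bases at III:2157976-2159158, after bet4 (a subunit of the enzyme that attaches lipids to Rab GTPases) and before lsc2 (a subunit of succinate-CoA ligase of the citric acid cycle). It had 25 and 16 reads in the wild type and 94 and 125 in the mutant, 0.506 ± 0.169 and 2.69 ± 0.233 scaled reads per 1000000 gene reads (SD, n = 2). Both mutant libraries were far above both wild-type libraries, and the log2 change was 2.42 ± 0.215 (SE, edgeR adjusted p = 1.47e-09). The bet4 gene row had 17109 and 17312 reads in the wild type and 12434 and 14552 in the mutant, a log2 change of -0.34. Row reads per 1000 bet4 reads were accordingly 1.46 and 0.924 in the wild type and 7.56 and 8.59 in the mutant, a log2 change of 2.76 ± 0.215 (edgeR adjusted p = 4.09e-14). Relative to lsc2, whose own change of 0.05 did not pass the threshold, the row rose by 2.36 ± 0.22 (edgeR adjusted p = 1.56e-06). RefSeq had no gene in the row. Near-identical sequence elsewhere in the genome matched 31.3% of it, so the origin of part of its reads is uncertain. Both bet4 and lsc2 overlap another gene, whose reads their counts may include.

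Another 4 rows were among those with the highest change relative to the upstream gene. The row from SPNCRNA.1519 (a polyadenylated non-coding RNA) to nak1 (a PAK-like kinase) had 4 and 2 reads in the wild type and 22 and 20 in the mutant, and rose by 3.14 ± 0.529 on the log2 scale relative to SPNCRNA.1519 (edgeR adjusted p = 7.82e-06), and by 3.75 without wild-type replicate 1. The row from SPBC530.07c to clu1 had 17 and 16 reads against 32 and 40, while SPBC530.07c fell by 1.11 on the log2 scale, which gave a relative change of 2.22 ± 0.293 (edgeR adjusted p = 5.49e-08). Here the fall of the gene made up about as much of the relative change as the rise of the row. The row from mug109 (a gene upregulated in meiosis) to mns1 (an alpha-mannosidase) had 16 and 15 reads against 56 and 55, a relative change of 2.07 ± 0.265 (edgeR adjusted p = 2.89e-08). The row from dep1 (a subunit of the Rpd3L histone deacetylase complex) to vps1301 had 3 and 9 reads against 16 and 24, a relative change of 2.06 ± 0.467 (edgeR adjusted p = 0.000614), which became 3.0 without wild-type replicate 2 and 1.51 without wild-type replicate 1. In these 4 rows the strains did not overlap, which the rule for naming required. The nak1 and dep1 rows passed the filter on low counts through their mutant reads alone. RefSeq places antisense non-coding RNA over 92.4% of the mug109 row and 100.0% of the dep1 row. It also does so over 38.5% of the nak1 row and 13.8% of the clu1 row.

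Other rows rose together with the gene before them. The row after adh4 (an alcohol dehydrogenase), 846 bases at I:155584-156429, had 210 and 217 reads in the wild type and 1448 and 1759 in the mutant, a log2 change of 2.91 ± 0.0677 (edgeR adjusted p = 7.51e-22). The adh4 gene itself went from 8298 and 8645 reads to 70300 and 82260, a log2 change of 3.18. Per 1000 adh4 reads the row thus had 25.3 and 25.1 reads in the wild type and 20.6 and 21.4 in the mutant, and relative to adh4 the log2 change was -0.26 ± 0.1 (edgeR adjusted p = 0.047). That call was lost by leaving out any 1 of the 4 libraries, with values from -0.29 to -0.24 and adjusted p from 0.0877 to 0.256. Relative to the downstream gene SPAC5H10.05c, which rose by 1.02 itself, the row rose by 1.89 ± 0.0704 (edgeR adjusted p = 7.3e-11).

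The rows after pho1 and mug15 likewise rose in level along with the gene before them. The row after pho1 (a secreted acid phosphatase), 3118 bases at II:4449054-4452171, had 23 and 19 reads in the wild type and 146 and 175 in the mutant, a log2 change of 2.93 ± 0.187 (edgeR adjusted p = 2.12e-12). The pho1 gene had 27208 and 29010 reads against 103070 and 125519, a log2 change of 2.03. Relative to pho1 the row was higher by 0.91 ± 0.219 (edgeR adjusted p = 0.00122), and without wild-type replicate 2 this was 0.73 and no longer passed. The row after mug15, 175 bases at I:1377073-1377247, had 14 and 12 reads against 76 and 80, and mug15 had 63 and 61 against 273 and 361. The mug15 gene row ends at its stop codon, and relative to mug15 the row's log2 change was 0.25 ± 0.298 (edgeR adjusted p = 0.571). The row therefore rose by 2.58 ± 0.245 in level with no change relative to its gene that passed the threshold. Relative to the downstream gene SPAC57A10.07, which rose by 0.13 itself, the row was higher by 2.45 ± 0.23 (edgeR adjusted p = 1.68e-06). An antisense non-coding RNA of RefSeq covered 30.9% of the mug15 row.

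The row from adh8 (an alcohol dehydrogenase) to tms1 (a hexitol dehydrogenase) lay between 2 genes that both rose. It had 68 and 88 reads in the wild type and 394 and 438 in the mutant, a log2 change of 2.42 ± 0.117 (edgeR adjusted p = 8.06e-15). With adh8 higher by 1.1 and tms1 by 0.85 on the log2 scale, the row was still higher by 1.33 ± 0.135 relative to adh8 and by 1.57 ± 0.131 relative to tms1 (edgeR adjusted p = 1.02e-10 and 5e-07). A RefSeq non-coding RNA on the opposite strand covered 77.2% of it. The row from SPNCRNA.68 to cut2 (securin, which holds back the separation of sister chromatids) had 3 and 1 reads against 19 and 27, and relative to cut2 it was higher by 3.26 ± 0.553 (edgeR adjusted p = 0.000464), and by 4.2 without wild-type replicate 1. The row from SPNCRNA.1161 to rps1702 (a ribosomal protein) had 3 and 10 reads against 28 and 24, with a change of 2.32 ± 0.428 relative to rps1702 (edgeR adjusted p = 0.000833), which became 3.36 without wild-type replicate 2 and 1.74 without wild-type replicate 1. Antisense non-coding RNA of RefSeq covered 78.2% of the cut2 row and 30.2% of the rps1702 row. Both rows passed the filter on low counts through their mutant reads alone.

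The 2 named rows with the highest change in level, and the last of the 10 highest, adjoin non-coding RNAs of the centromeres, whose repeats are normally kept silent as heterochromatin. The row from SPNCRNA.234 to IRC1-R, 2448 bases at I:3787137-3789584, had 0 and 0 reads in the wild type and 24 and 37 in the mutant. Against a floor of 3 counts over both wild-type libraries it was at least 20.4-fold higher (edgeR adjusted p = 8.19e-08). The row from nam5 to SPNCRNA.231, 6211 bases at I:3754812-3761022, had 1 and 0 reads against 78 and 91, a scaled ratio of 170 with a 95% exact interval of 30.1 to 6746 that covers counting error only; without wild-type replicate 1, which held that single read, the wild type is at 0 (edgeR adjusted p = 3.34e-12). Both are marked as copied over 100.0% of their length elsewhere in the genome, so the copy that gave the reads is uncertain. The gene rows before them rose as well. SPNCRNA.234 had 0 and 0 reads in the wild type against 18 and 27 in the mutant, and nam5 had 1 and 0 against 15 and 19. The row from SPNCRNA.373 to a tyrosine tRNA gene, copied over 64.6%, had 7 and 6 reads against 29 and 33, a log2 change of 2.24 ± 0.357 (edgeR adjusted p = 2.06e-05).

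A set of rows was then taken after these values were seen, namely the 32 tandem rows next to a centromeric non-coding RNA. Their reads summed to 19 and 16 in the wild type and 145 and 181 in the mutant, where most came from the 3 rows above. In 22 of the 32 there were 0 reads in all 4 libraries, 20 had a near-identical copy, and the 3 rows that passed the filter were the 3 described. Those 3 passed it through their mutant reads alone, so their adjusted p-values come from rows picked where the mutant was high. The rise was thus seen in few of these rows. The longest tandem row, 20252 bases at III:1071176-1091427 on the border of a lysine tRNA gene and the centromeric SPNCRNA.482, had 0 reads in all 4 libraries, and 99.5% of it was copied elsewhere. Reads that match several places may have been dropped or placed at 1 of them; how the authors treated them is not given in the sources used here. Of the other 3 longest rows that had not been named, SPATRNAALA.05 to SPNCRNA.234 had 0 and 0 reads against 2 and 2, SPNCRNA.369 to SPNCRNA.370 had 0 and 0 against 0 and 1, and SPAC750.07c to SPAC750.06c had 0 in all 4.

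**Figure D5:**
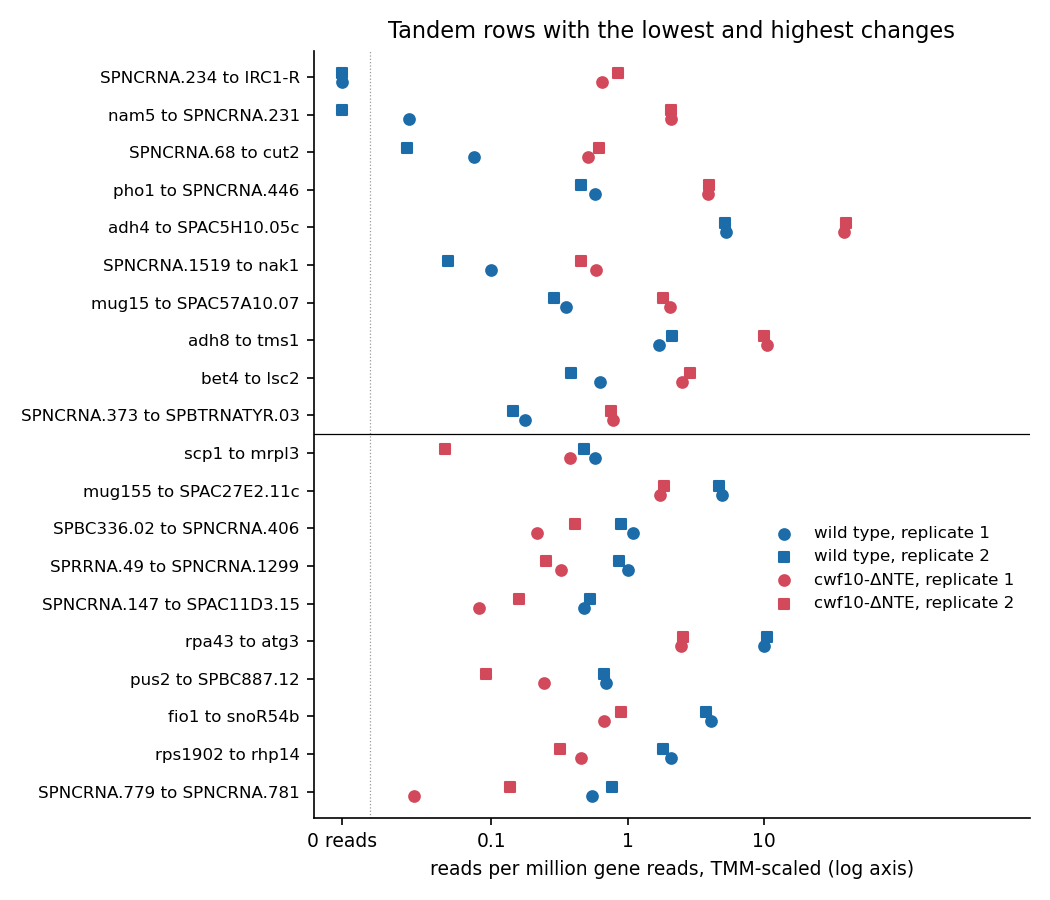
Scaled reads per 1000000 gene reads (horizontal log axis, with 0 reads drawn at the left edge) in the 4 libraries for the 10 tandem rows with the highest and the 10 with the lowest change in level, each named by its upstream and downstream gene. In all 20 rows the 2 strains do not overlap; the upper block runs from 0 reads to the row after adh4, with a mutant mean of 39.5 reads per 1000000, and the 2 mutant replicates of scp1 to mrpl3 lie far apart.

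The rows after rpa43 and rps1902 fell by more than either of their neighbours. The row from rpa43 (a subunit of RNA polymerase I) to atg3 (an enzyme of autophagy), 572 bases at II:3999895-4000466, had 400 and 435 reads in the wild type and 92 and 112 in the mutant, 10.3 ± 0.347 and 2.52 ± 0.0611 scaled reads per 1000000 (SD, n = 2). Both mutant libraries were far below both wild-type libraries, a log2 change of -2.03 ± 0.106 (edgeR adjusted p = 3.89e-14). The rpa43 gene fell by 0.56 on the log2 scale and atg3 rose by 0.45. Relative to rpa43 the row fell by 1.46 ± 0.125 and relative to atg3 by 2.47 ± 0.114 (edgeR adjusted p = 6.38e-13 and 8.16e-10). RefSeq had no gene in this row.

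The row from rps1902 (ribosomal protein eS19) to rhp14 (a DNA repair protein), 610 bases at II:536042-536651, had 83 and 75 reads against 17 and 14, a log2 change of -2.33 ± 0.24 (edgeR adjusted p = 1.83e-08). The rps1902 gene fell by 0.6 on the log2 scale while rhp14 changed by -0.09 without passing the threshold, and the row fell by 1.74 ± 0.254 and 2.24 ± 0.227 relative to them (edgeR adjusted p = 5.4e-07 and 3.23e-06). An antisense non-coding RNA of RefSeq covered 40.5% of the row.

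The row from pus2 (a tRNA pseudouridine synthase) to SPBC887.12 (a P-type ATPase), 541 bases at II:3561113-3561653, had 28 and 28 reads against 9 and 4. Its neighbours changed by -0.11 and 0.0 on the log2 scale, and the row fell by 2.08 ± 0.393 in level (edgeR adjusted p = 0.000167). Relative to pus2 the change was -1.97 ± 0.418 (edgeR adjusted p = 0.000257). Without mutant replicate 1 these changes were -2.87 and -2.79, and without mutant replicate 2 the latter was -1.37. The pus2 row passed the filter on low counts only through its wild-type reads. Its adjusted p-values thus come from a row picked where the wild type was high. These 3 rows were lower in level and relative to both neighbours. In each, at least 1 neighbour overlaps another gene, so the count of that neighbour may include other reads.

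The row before snoR54b, a small nucleolar RNA, fell together with the gene after it. It spans 431 bases at I:4237875-4238305 after fio1 (an iron transport oxidase) and had 164 and 157 reads in the wild type and 25 and 39 in the mutant, a log2 change of -2.32 ± 0.173 (edgeR adjusted p = 5.45e-11). The snoR54b row had 54 and 38 reads against 9 and 7, a log2 change of -2.5, while fio1 had 409 and 449 against 421 and 503. Row reads per 1000 fio1 reads were 400.0 and 349.0 against 59.2 and 77.4. In RefSeq, the non-coding RNA SPNCRNA.3895 on the same strand covered 69.1% of the row.

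The row from mug155 (a meiotic gene) to SPAC27E2.11c, 367 bases, had 196 and 194 reads against 65 and 81, a log2 change of -1.41 ± 0.135 (edgeR adjusted p = 5.5e-09), while mug155 itself was higher by 0.61. Relative to mug155 the row fell by 2.01 ± 0.146 (edgeR adjusted p = 4.93e-15). An antisense non-coding RNA covered 94.3% of it, so its reads cannot be assigned to the strand of mug155. The row from SPBC336.02 (an rRNA dimethylase) to SPNCRNA.406 had 44 and 37 reads against 8 and 18, with an antisense non-coding RNA over 78.0% of it. This row passed the filter on low counts only through its wild-type reads.

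The other rows with the lowest changes in level rest on less. Of these, the rows after SPNCRNA.779, SPNCRNA.147 and scp1 passed the filter on low counts only through their wild-type reads. Their adjusted p-values thus come from rows picked where the wild type was high. The row from SPNCRNA.779 to SPNCRNA.781 is 8 bases long and had 22 and 32 reads against 1 and 6, reads that must also lie on a neighbour. Its fall relative to SPNCRNA.781 was 1.94 ± 0.532 (edgeR adjusted p = 0.0122), but -1.67 without wild-type replicate 2 and -1.29 without mutant replicate 1, where it no longer passed, and -3.55 without mutant replicate 2. The row from SPNCRNA.147 to SPAC11D3.15 (a 5-oxoprolinase) had 19 and 22 reads against 3 and 7. The row from a 28S ribosomal RNA gene to SPNCRNA.1299 had 40 and 36 against 12 and 11, and lies in repeated ribosomal DNA. The row from scp1 (the fission yeast Scap) to mrpl3 (a mitochondrial ribosomal protein) had 23 and 20 reads against 14 and 2. Its log2 change of -1.4 ± 0.476 (edgeR adjusted p = 0.0231) became -1.27 without wild-type replicate 1 and -0.49 without mutant replicate 2, with adjusted p of 0.0736 and 0.431, and -3.45 without mutant replicate 1.

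Some rows differed from a neighbour that had itself changed. The row from SPNCRNA.1431 to tom40 (the channel of the mitochondrial outer membrane) had 179 and 164 reads in the wild type and 136 and 199 in the mutant, with overlapping strains and a log2 change of -0.03 ± 0.126. SPNCRNA.1431 went from 147 and 136 reads to 558 and 677, so that relative to it the row was lower by a log2 change of -2.15 ± 0.133 (edgeR adjusted p = 3.27e-17). The row from his1 (the first enzyme of histidine synthesis) to rec10 (a meiotic recombination protein) had 106 and 105 reads against 71 and 82. As rec10 rose from 457 and 457 reads to 1142 and 1341, the row fell by 1.9 ± 0.148 relative to it (edgeR adjusted p = 2.85e-07). Relative to his1, which fell by 0.69 itself, its change was 0.23 ± 0.157 and did not pass (edgeR adjusted p = 0.292).

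The genes that make and end messenger RNAs at this step were looked at in a list of 19, covering the cleavage and polyadenylation factor, its partners and the termination exonuclease. All 19 were tested, 4 rose, 7 fell and 8 did not pass the threshold, beside 39.6% higher and 38.5% lower over all genes. The list had a median log2 change of -0.01 beside 0.01 over all genes, and changes of at most 0.37 in size. Among those that rose, rhn1 (a binder of the polymerase tail) had 1226 and 1120 reads in the wild type and 1255 and 1580 in the mutant, a log2 change of 0.28 ± 0.0519 (edgeR adjusted p = 2.53e-05). The zinc finger subunit gene yth1 rose by 0.23 and cft2 by 0.18. All 4 that rose overlap another gene, whose reads their counts may include, as do dhp1 and swd22 among those that fell. Among those that fell, pta1 (a scaffold subunit) had 6947 and 7151 reads against 5026 and 5800, a log2 change of -0.37 ± 0.0229 (edgeR adjusted p = 2.91e-14). The RNA-binding termination factor gene seb1 fell by 0.22 and the phosphatase gene ssu72 by 0.19. These 6 kept their direction when only library totals were used for scaling, whereas rna14 and dhp1, at -0.07 and -0.08, came to 0.01 and 0.0.

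In the authors' deposited table, 1830 tandem rows carry an adjusted p from DESeq, and of these 118 are higher and 103 lower at an adjusted p under 0.05. For the row from bet4 to lsc2 the authors' deposited table gives a log2 change of 2.27 and for the row from rpa43 to atg3 one of -2.17.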

How the data were processed

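The authors deposited raw read counts per gene, intron and intergenic row, counts of exon-intron reads per intron, a log2 splicing efficiency per intron, a log2 fold change from DESeq and its adjusted p-value, per the file headers. The authors used first reads alone, per the labels. The submitters' processing notes list CASAVA 1.8.2 and Bowtie 0.12.7 but no role for either. Build, annotation release and counting method were not given in the sources used here. The table's coordinates fit the RefSeq assembly ASM294v3, where 98.67% of 5358 introns begin with GT and end with AG, and 6844 of 7022 gene rows matched RefSeq by identifier. The exon-exon reads of cwf10 were solved from the deposited log2 splicing efficiency and exon-intron counts.

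Levels were tested with edgeR 4.0.16 (quasi-likelihood, R 4.3.3, filterByExpr, Benjamini-Hochberg adjustment, threshold 0.05) over all 1724 intergenic rows that passed, with gene-row totals and TMM factors as library sizes. Relative levels used an offset of the neighbour's reads plus 1, for neighbours of at least 50 reads in every library. DESeq2 1.42.0 was an alternative. Copies were found with blast 2.17.0 (at least 80% covered at 95% identity). Each strain had 2 libraries, so single values were compared by an exact permutation test. Named rows were the 10 highest and 10 lowest in level and the 5 highest and 5 lowest relative to each neighbour, among rows with at least 20 mean reads in the higher strain, strains that did not overlap and a change past the threshold. A row could pass the filter on low counts and this minimum through the reads of a single strain. The 5 densest and the 5 longest rows were named whatever their change. Members, lists and this rule were chosen with earlier results of these data known. The second reads of the same fragments were not used here.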

Additional observations from a re-analysis of the deposited data

How the results depend on the processing

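The direction of the summed tandem share held under every alternative run for it, with log2 values of 0.147 to 0.205. DESeq2 called fewer rows: 101 higher and 38 lower in level, 62 and 28 relative to the upstream gene, 104 and 27 relative to the downstream gene. Rows whose neighbours overlap no other gene gave 87 and 37, 51 and 17, and 67 and 12, where fewer rows were tested. Leaving out 1 library gave 178 to 216 higher and 61 to 78 lower in level, 101 to 131 and 45 to 54 relative to the upstream gene, and 113 to 179 and 35 to 56 relative to the downstream gene; a lone library of a strain is then assumed to vary like the others. Scaling by intergenic rows gave 173 higher and 151 lower, and library totals 289 and 68. Leaving out rows at least 50% covered by a RefSeq gene, chosen after seeing the data along with the removal of copied rows, gave 102 and 54 of 452 tested. The cause of the lower DESeq2 counts was not tested. Of 63 called values of named rows, none reversed over 731 alternatives; 13 lost the threshold under at least 1.

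Replicate numbers do not pair the libraries: the differences between replicates correlated at 0.08 between strains over tandem rows. With the replicate number as a block, 218 rows were higher and 88 lower in level, 124 and 47 relative to the upstream gene, and 174 and 53 relative to the downstream gene.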
